A study of Homo sapiens with 6 samples.

Results

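Housekeeping genes are transcribed in nearly every cell type, and their promoters are therefore used as examples of constantly active start sites. A set of 6 such genes was examined here for peaks of YAP and TAZ. These were ACTB (β-actin of the cytoskeleton), TUBA1B (an α-tubulin of microtubules), GAPDH (a glycolytic enzyme), EEF1A1 (the elongation factor that brings aminoacyl-tRNA to the ribosome), PPIA (cyclophilin A, a prolyl isomerase that assists protein folding) and B2M (β2-microglobulin, the light chain of class I antigen-presenting molecules). They were chosen by name for their general function, not by their peaks, although earlier results of these data were known. Their transcription in these cells was not measured here. A peak belonged to a gene if it overlapped the gene's span, given in whole kilobases, or the 20 kb on either side of it. In all, 175 peaks met this rule, of 1390121 in the 4 deposited lists: 39 and 44 with YAP, and 47 and 45 with TAZ.

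YAP and TAZ are paralogous coactivators at the end of the Hippo pathway. They do not bind DNA themselves and reach it mainly through TEAD factors, often beside AP-1 sites and often at enhancers far from start sites. Active promoters in turn lie in open, nucleosome-poor chromatin that is frequently rich in CpG.

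The libraries came from H1299, a human cell line established from non-small cell lung cancer, grown with 10% serum and then kept without serum for 18 hours. All groups shared this treatment. There were 2 libraries made with an anti-YAP antibody, 2 with an anti-TAZ antibody and 2 inputs without antibody. Inputs entered only through the deposited peak lists, and which input each list was called against is unsettled. The labels do not say that the replicates came from separate cultures, so the spread between them may be technical.

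Peak number ranged from 353465 to 392250 in the YAP lists and from 310781 to 333625 in the TAZ lists. On chromosomes 1 to 22 and X a typical peak was narrow, with a median width of 613 to 629 bp (YAP) and 638 to 717 bp (TAZ). The fold of a peak, as deposited by the authors, compares the ChIP with its input and had a median of 3.14 in each YAP list and of 3.16 and 3.03 in the TAZ lists. Peak lists carry no read totals, so the depth is unknown and the precision it gives cannot be stated.

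All coordinates are hg19 and count from 1. The exact start sites in that build were not used here. A start is known to lie in the outermost kilobase of the span at the 5′ end of the gene, called the start kilobase below. It runs on chromosome 7 from 5570001 to 5571000 for ACTB and from 44836001 to 44837000 for PPIA. On chromosome 12 it runs from 49525001 to 49526000 for TUBA1B and from 6643001 to 6644000 for GAPDH. It runs from 74230001 to 74231000 on chromosome 6 for EEF1A1 and from 45003001 to 45004000 on chromosome 15 for B2M. Distances are given from the outer edge of this kilobase and are positive in the direction of transcription. ACTB, TUBA1B and EEF1A1 lie on the minus strand and the other 3 on the plus strand.

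The 250 bases before the start are printed for the genes whose start kilobase lacked a peak in 3 of the 4 lists (TUBA1B, EEF1A1 and PPIA). They are also printed for B2M, whose start kilobase had a peak in every list. The choice of the first 3 was made after their peaks had been seen. The B2M peak covered only 43 to 230 bp of its start kilobase, at the inner edge, so the printed B2M bases may lie outside it. The sequences therefore do not contrast starts under a peak with starts under none. Capitals mark TATAA and the CCAAT box (written ATTGG on the opposite strand).
TUBA1B: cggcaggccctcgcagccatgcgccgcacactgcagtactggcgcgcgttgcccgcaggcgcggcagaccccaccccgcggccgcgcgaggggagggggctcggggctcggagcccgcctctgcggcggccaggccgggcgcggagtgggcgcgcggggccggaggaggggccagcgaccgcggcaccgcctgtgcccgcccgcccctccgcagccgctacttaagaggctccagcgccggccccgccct
EEF1A1: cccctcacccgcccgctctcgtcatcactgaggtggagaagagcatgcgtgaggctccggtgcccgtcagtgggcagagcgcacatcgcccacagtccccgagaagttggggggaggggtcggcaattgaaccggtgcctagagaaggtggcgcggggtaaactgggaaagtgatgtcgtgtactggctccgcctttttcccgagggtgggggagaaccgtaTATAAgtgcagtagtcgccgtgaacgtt
PPIA: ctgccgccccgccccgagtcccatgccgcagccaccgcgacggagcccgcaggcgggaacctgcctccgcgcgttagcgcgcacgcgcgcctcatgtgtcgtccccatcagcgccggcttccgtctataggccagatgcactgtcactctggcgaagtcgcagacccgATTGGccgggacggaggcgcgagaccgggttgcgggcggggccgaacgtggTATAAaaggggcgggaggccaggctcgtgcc
B2M: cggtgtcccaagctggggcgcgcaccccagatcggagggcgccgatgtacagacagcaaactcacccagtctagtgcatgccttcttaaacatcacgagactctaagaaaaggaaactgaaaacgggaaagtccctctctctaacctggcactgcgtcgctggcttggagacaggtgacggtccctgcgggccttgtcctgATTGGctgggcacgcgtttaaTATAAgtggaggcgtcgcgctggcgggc

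These sequences are RefSeq's, from the build GRCh38.p14, each on its gene's own strand. They lie in the start kilobase or reach into the kilobase before it. Of the 6 genes, 5 had an entry. ACTB had none, and the GAPDH entry belonged to a start 747 bp inside the gene and is not shown. Both strands of the 250 bases were searched for GGAATG (the TEAD motif), TGANTCA (AP-1), the CArG box of SRF, CCAAT and TATAA, and the matches found did not overlap. None of the 4 printed sequences held the TEAD motif, the AP-1 motif or the CArG box, which occurred in 11.9%, 6.57% and 1.16% of the 35114 RefSeq promoters of this length. TATAA stood 28 bases before the start in EEF1A1 and B2M and 31 bases before it in PPIA, and occurred in 18.9% of promoters. The CCAAT box was present in PPIA and B2M, beside 32.0% of promoters. The GC content was 81.2% in TUBA1B, 71.6% in PPIA, 61.6% in EEF1A1 and 58.4% in B2M, against a median of 58% over all promoters. The same stretches held 38, 35, 20 and 18 CpG dinucleotides in that order of genes, with a median of 11 over all promoters.

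Start kilobases fell into 2 patterns. ACTB, GAPDH and B2M had a peak over the start kilobase in all 4 lists, and EEF1A1, PPIA and TUBA1B had one in a single list, which was TAZ replicate 2 each time. The B2M peak covered only 43 to 230 bp of that kilobase, at its inner edge, so it may not lie over the start itself. When 500 bp had to be covered, 2 starts had a peak in all 4 lists. Of all 1 kb bins on chromosomes 1 to 22 and X, 14.6% had a peak in all 4 lists, 8.78% in exactly 1 and 61.7% in none. By library, 3 and 3 of the 6 start kilobases had a peak with YAP and 3 and 6 with TAZ. The corresponding shares of all bins were 29.8% and 26.4% for the YAP libraries and 24.3% and 24.2% for the TAZ libraries. With peaks of a q-value of at most 0.01, 1 start had a peak in all 4 lists. With peaks of a fold of at least 4, and with all lists trimmed to equal length, none did. YAP replicate 1 had the lowest-ranked start peaks of ACTB, GAPDH and B2M, with a −log10 q of 2.01, 1.92 and 1.97. Of its list, 90.1%, 91.6% and 90.7% had a higher −log10 q than these. For the same genes in the other libraries that share was at most 84.7%.

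More of the peaks over the starts lay below the median of their list than above it. Over the 6 genes and 4 lists there were 15 of them, with a fold between 2.39 and 3.95 and a width between 800 and 10717 bp. Of these 15, 10 had a fold below the median of their own list and 12 a −log10 q below it. By definition, a list has as many peaks below its median as above. ACTB in TAZ replicate 2 was close to it, with a fold of 3.01 against 3.03. The 15 peaks are the same 6 genes seen in 4 lists and are not independent of each other. In 6 cases the start peak had the lowest fold of its gene's window. The opposite held for ACTB in TAZ replicate 1, where the start peak had the highest fold of the window, 3.95. Its −log10 q of 4.15 was close to the highest there, 4.20. Of the 144 peaks lying wholly in the flanks, 38 had a fold below the median of their list. No start peak had the highest −log10 q of its window. The peak with that value lay in a flank in 22 of the 24 gene and library pairs and reached into the far part of the span in the other 2. Most peaks of the windows were flank peaks in any case, 144 of 175, and 15 were start peaks.

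**Figure D1:**
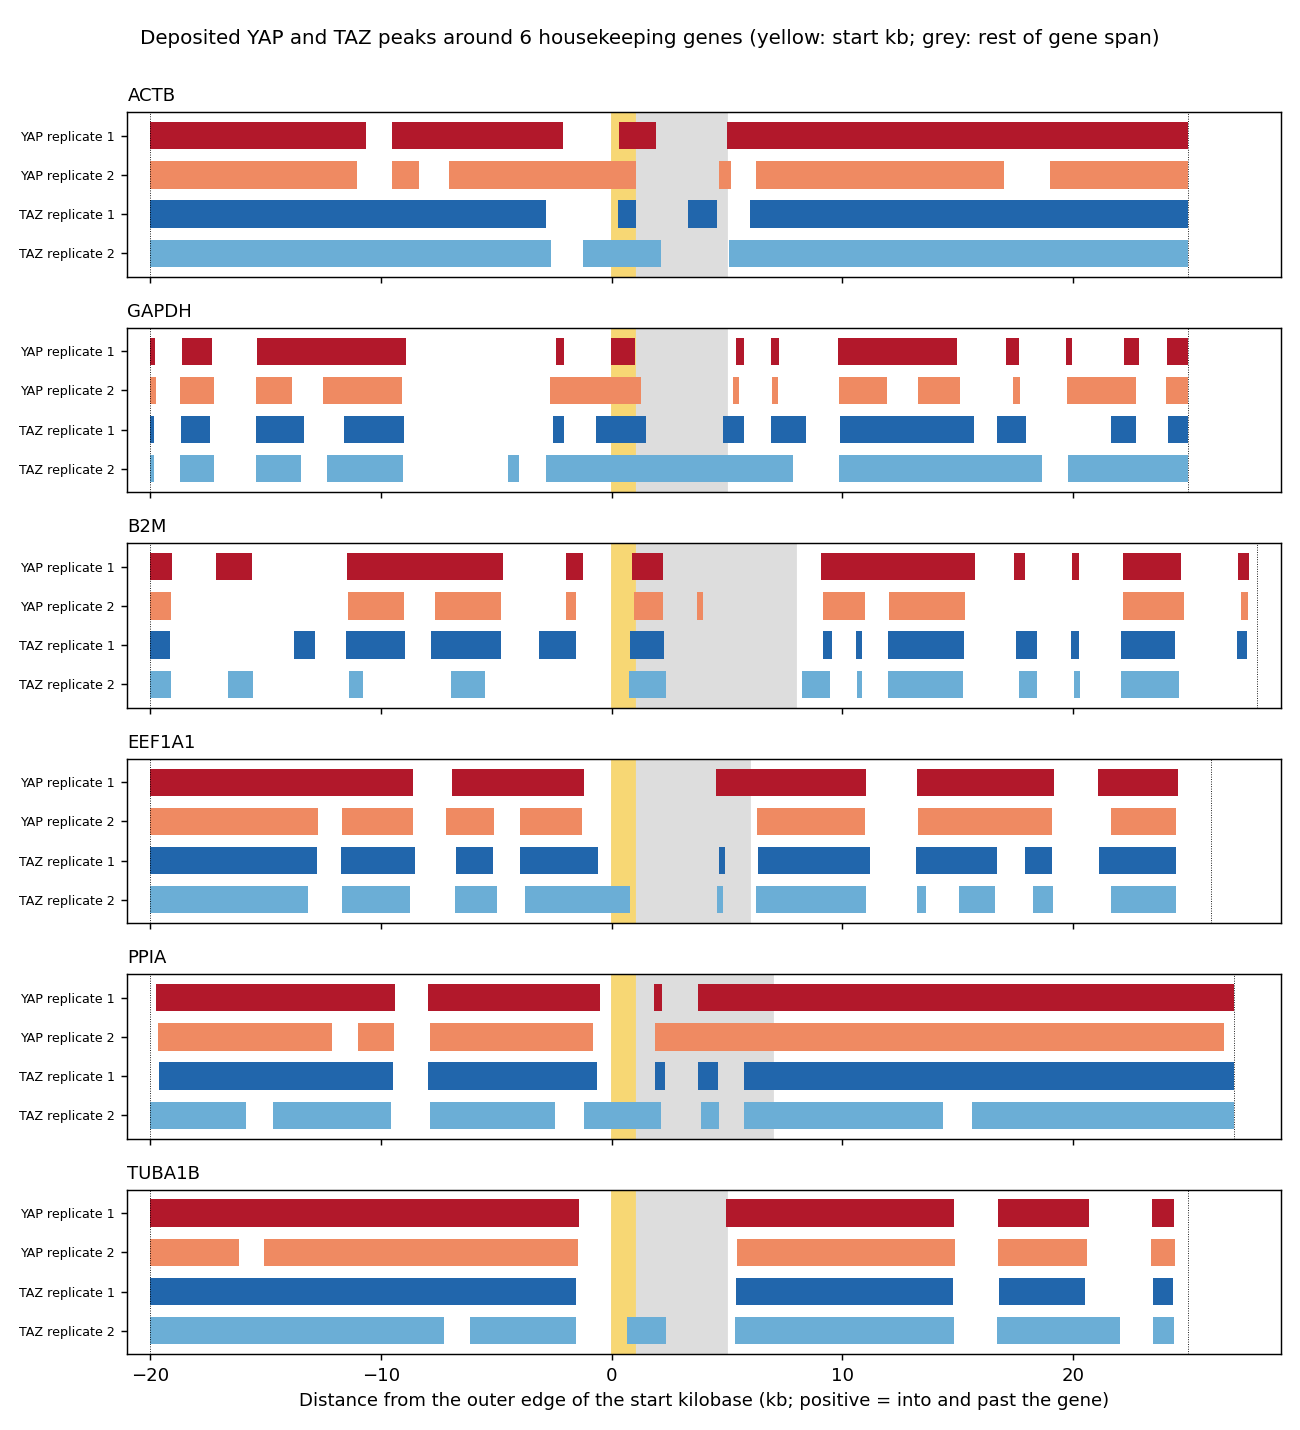
Peaks of each library (1 row each, YAP rows above TAZ rows) within 20 kb of the 6 gene spans, plotted against the distance in kb from the outer edge of the start kilobase. The start kilobase is yellow, the rest of the span grey, and dotted lines mark the ends of the window. ACTB, EEF1A1, PPIA and TUBA1B have at least 1 peak of 10 kb or more in every library, and EEF1A1, PPIA and TUBA1B have a peak over the start in TAZ replicate 2 alone.

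Of the cytoskeletal genes, ACTB had a start peak in all 4 lists and TUBA1B in 1, and the flanks of ACTB were covered more than those of TUBA1B in every library. In ACTB, YAP peaks covered 663 and 1000 bp of the start kilobase and TAZ peaks 728 and 1000 bp. Every library thus had most of this kilobase covered, YAP replicate 2 and TAZ replicate 2 all of it. The YAP peaks over it ran from 5569085 to 5570663, with a width of 1579 bp and a fold of 2.52, and from 5569966 to 5578048, with a width of 8083 bp and a fold of 3.14. The TAZ peaks ran from 5569929 to 5570728, with a width of 800 bp and a fold of 3.95, and from 5568851 to 5572258, with a width of 3408 bp and a fold of 3.01. The TAZ replicate 1 peak was the narrowest of the 15 start peaks and had the highest fold of them. The body of ACTB was sparser than its start. Its span was covered to 31.6% and 27.8% with YAP and 41.0% and 43.0% with TAZ, whereas its flanks were covered to 91.8% and 85.3% with YAP and 90.4% and 96.4% with TAZ. A stretch of 2232 to 3612 bp inside or bordering the span held no peak in each library, and 1154 bp of it were peak-free in all 4. Beyond it lay some of the widest peaks of the lists, among them 48954 bp upstream in YAP replicate 2 and 34145 bp downstream in TAZ replicate 2. The nearest protein-coding genes in the RefSeq order are FSCN1 upstream and FBXL18 downstream.

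TUBA1B had no base of its start kilobase under a peak in either YAP library or in TAZ replicate 1, and 345 bp in TAZ replicate 2. That single peak ran from 49523666 to 49525345 with a fold of 2.68, the lowest of its window. The span was covered to 1.02% and 0% with YAP and to 0% and 33.6% with TAZ. The flanks were covered to 83.3% and 79.4% with YAP and to 81.2% and 82.7% with TAZ. The span was thus almost bare in 3 libraries between flanks that differed little among the 4. The first peak upstream began between 49527436 and 49527565 in all 4 libraries, a range of 129 bp. The nearest peak on the far side of the gene ended between 49520546 and 49521051. The peak-free stretch between those borders measured 6384 and 6927 bp in the YAP libraries and 6957 bp in TAZ replicate 1. The upstream neighbour is TUBA1A, another α-tubulin gene, and the first peak on that side spanned 43529 and 13620 bp with YAP and 28608 and 4584 bp with TAZ.

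GAPDH was the gene whose start was covered most evenly, with 991 and 1000 bp under YAP peaks and 1000 bp under each TAZ library's peak. The YAP peaks over it were 1013 and 3931 bp wide with a fold of 2.44 and 2.66, and the TAZ peaks 2181 and 10717 bp wide with a fold of 3.07 and 2.79. Its flanks were less densely covered than those of ACTB and TUBA1B, at 41.4% and 45.3% with YAP and 46.4% and 67.8% with TAZ. In 3 libraries the peak over the start stopped within 1501 bp of the start edge and a stretch of 3311 to 4403 bp followed without a peak. In TAZ replicate 2 a single peak from 6640159 to 6650875 covered the whole span, and the share of the span under peaks was 19.8% and 25.2% with YAP and 33.8% and 100% with TAZ. GAPDH in TAZ replicate 2 was also the only 1 of the 24 gene and library pairs in which the flanks were not covered more than the span. The highest fold in the window was 4.07 and 4.53 with YAP and 4.43 and 3.34 with TAZ, in each case in a flank.

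EEF1A1 and PPIA, which serve protein synthesis and folding, had bare starts in 3 libraries. For EEF1A1, 0 bp of the start kilobase were covered with YAP, and 0 and 805 bp with TAZ. The nearest upstream peak ended 1200 and 1290 bp before the start edge in the YAP libraries and 596 bp before it in TAZ replicate 1. In TAZ replicate 2 the peak at that place ran on from 74234771 to 74230196 and so crossed the start, with a fold of 3.21. The EEF1A1 span was covered to 24.5% and 0% with YAP and to 4.53% and 17.7% with TAZ, and 62.0% of it was under no peak of any list. In YAP replicate 1 a peak from 74219953 to 74226472 reached into the far end of the span, with a −log10 q of 8.31 at a fold of 3.80. In the other 3 libraries the peak at that place ended before the span, and the TAZ libraries had peaks of 272 and 257 bp wholly inside it.

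For PPIA, 0 bp of the start kilobase were covered with YAP, and 0 and 1000 bp with TAZ. The 3 libraries without a start peak had nearly the same borders. The last peak before the gene ended between 44835188 and 44835480, and the next began between 44837837 and 44837884, a range of 47 bp. The peak-free stretch measured 2356 and 2695 bp with YAP and 2522 bp in TAZ replicate 1. In TAZ replicate 2 a peak from 44834794 to 44838139 with a fold of 2.63 lay across this stretch. The PPIA span was covered to 51.2% and 73.1% with YAP and to 36.1% and 59.4% with TAZ. It was the most covered of the 6 spans in both YAP libraries, but ACTB at 41.0% in TAZ replicate 1 and GAPDH at 100% in TAZ replicate 2 were covered more. Blocks of 24213 and 24665 bp in the YAP libraries and 22172 bp in TAZ replicate 1 began inside the gene and ran past its 3′ end.

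B2M had, on average, the sparsest window of the 6, with a start peak of similar borders in every list. This peak covered 109 and 43 bp of the start kilobase with YAP and 220 and 230 bp with TAZ. Both TAZ libraries covered more of it than both YAP libraries, but all of them only its inner edge. The peak began between 45003771 and 45003958 and ended between 45005221 and 45005366, so that the borders of the 4 libraries differed by at most 187 and 145 bp. It was 1344 and 1264 bp wide with YAP and 1504 and 1596 bp with TAZ. Its fold was 2.39 and 3.21 with YAP and 2.95 and 3.57 with TAZ, so the antibodies overlapped. Beyond this peak the gene was nearly free of peaks, and a stretch of 5173 to 6862 bp without any followed. In YAP replicate 2 a further peak of 258 bp lay between the start peak and this stretch. Of the B2M span, 76.8% was under no peak of any list.

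**Figure D2:**
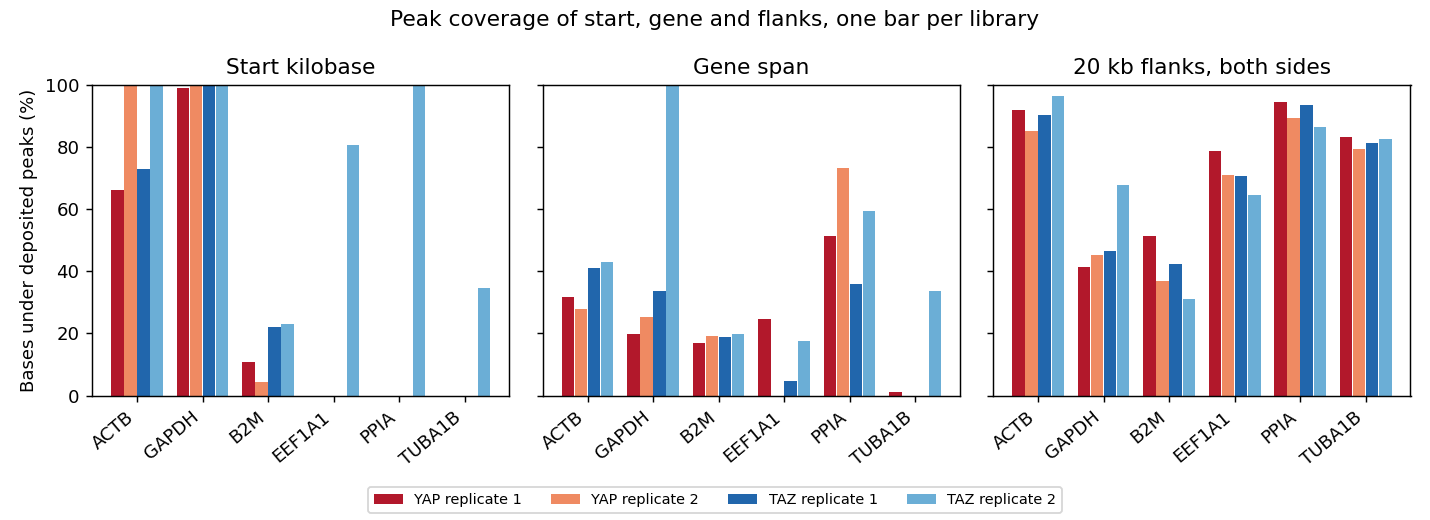
Bases under deposited peaks in percent for the start kilobase, the whole gene span and the 20 kb flanks on both sides, with 1 bar for each library (YAP before TAZ). The flanks lie between 31.0% and 96.4%, while the start kilobases of EEF1A1, PPIA and TUBA1B are at 0% in all libraries but TAZ replicate 2.

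Taking the 6 genes together, the spans were covered to 25.1% and 25.8% with YAP and to 22.3% and 43.5% with TAZ. The flanks were covered to 73.5% and 67.8% with YAP and to 70.8% and 71.5% with TAZ. The flanks exceeded the span in 23 of the 24 gene and library pairs. Of the 36 kilobases in the spans, 15 and 15 held a peak with YAP and 17 and 23 with TAZ, while 12 held one in all 4 lists and 8 in none. Among all 1 kb bins, 29.8% and 26.4% held a peak with YAP and 24.3% and 24.2% with TAZ. A peak in all 4 lists was held by 14.6% of all bins and in none by 61.7%. The spans were thus sparser than their flanks but held peaks more often than the typical bin. Counted by distance, the kilobase from 2 to 3 kb past the start edge was the emptiest, with at least 500 bp covered in 2 of the 24 pairs. The count was 10 in the start kilobase and 7 in the kilobase before it. At 10 kb past the start edge and at 10 kb before it, the count was 22. The flanks were uneven, however, and at 9 kb before the edge the count was 9, below that of the start kilobase.

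**Figure D3:**
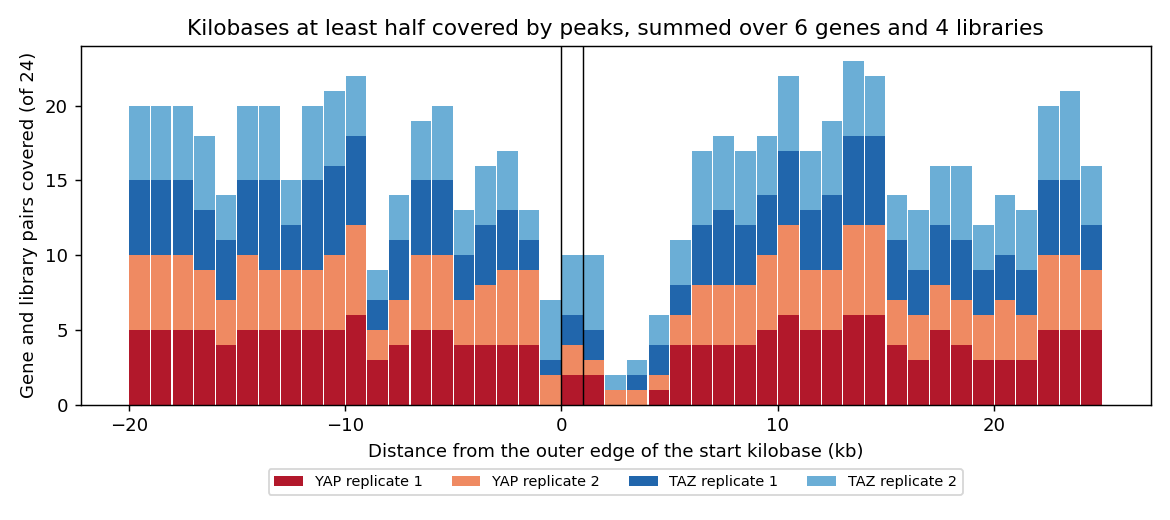
Number of gene and library pairs, of 24, in which at least 500 bp of a kilobase are under a peak, against the distance in kb from the outer edge of the start kilobase (vertical lines), stacked by library. The count falls to 2 at 2 to 3 kb and reaches 23 at 13 kb. It is 9 at 9 kb before the edge.

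The windows as a whole were densely covered in comparison with the genome. Averaged over the 4 libraries, the covered share of the window was 84.8% for ACTB, 85.6% for PPIA, 73.5% for TUBA1B, 63.5% for EEF1A1, 49.6% for GAPDH and 36.7% for B2M, with a median of 68.5%. The median over all 60716 windows of 50 kb on chromosomes 1 to 22 and X was 7.68%. Long stretches without any peak were left in this background, which can lower its median and the shares of denser windows. Windows of 50 kb with a higher share than the gene's made up 0.361% for PPIA, 0.389% for ACTB, 1.36% for TUBA1B, 2.97% for EEF1A1, 6.77% for GAPDH and 12.02% for B2M. On the gene's own chromosome the share of denser windows ran between 1.42% for TUBA1B and 10.3% for GAPDH. Within these windows 25 peaks were at least 10 kb wide, 6 and 7 in the lists of YAP and 6 in each list of TAZ. Peaks of that width made up 0.877% and 0.766% of the YAP lists and 0.615% and 0.982% of the TAZ lists. Only 1 of the 25 lay over a start kilobase, the GAPDH peak of TAZ replicate 2.

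**Figure D4:**
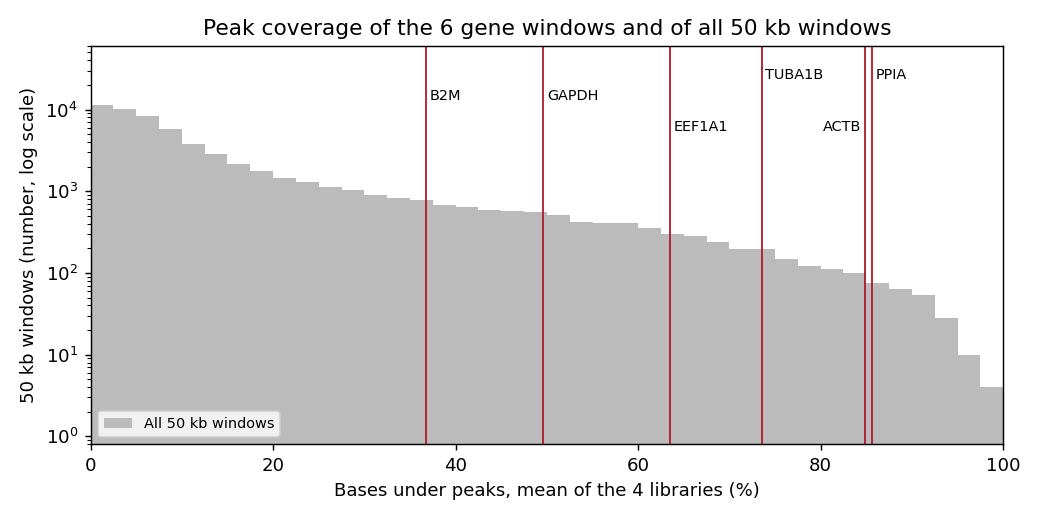
Number of 50 kb windows of chromosomes 1 to 22 and X (log scale) by the percent of their bases under peaks, averaged over the 4 libraries. Red lines mark the windows of the 6 genes, which lie between 36.7% and 85.6%, against a median of 7.68% for all windows.

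Since dense surroundings raise the chance that any kilobase meets a peak, the starts were also set beside bins whose surroundings, 20 kb on each side, were covered to at least 50%. There were 204048 such bins, and 66.4% of them had a peak in all 4 lists, 5.22% in exactly 1 and 7.81% in none. This comparison was added after the data had been seen. Surroundings of that density applied to 4 of the genes, of which ACTB had a start peak in all 4 lists and EEF1A1, PPIA and TUBA1B in 1. In the spans of these 4 genes, 8 of 23 kilobases had a peak in all lists and 4 in none. The surroundings of the GAPDH start were covered to 46.9% and those of the B2M start to 36.6%. With so few genes these shares describe the 6 loci and no test was made of them.

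How YAP and TAZ compared at these genes was read from the covered share of the window. No gene showed a difference that 2 libraries against 2 could establish, since the smallest p that an exact two-sided permutation test allows in this design is 0.33. GAPDH averaged 41.1% ± 2.84 with YAP and 58.2% ± 18.6 with TAZ (SD, n = 2 each), a YAP minus TAZ difference of -17.1 percentage points (exact permutation p = 0.33). PPIA averaged 87.5% ± 0.867 with YAP and 83.8% ± 1.83 with TAZ, a difference of 3.65 points (exact permutation p = 0.33). These were the 2 genes whose antibodies did not overlap, and they differed in opposite directions. The GAPDH difference was -3.96 points without TAZ replicate 2. That library had a peak spanning the gene and also the most covered GAPDH flanks, at 67.8%. Their part in the difference was not tested.

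In the other 4 genes the libraries of the antibodies overlapped, and each exact permutation p was 0.667, as were all 6 values after Benjamini-Hochberg adjustment over the genes. ACTB averaged 82.0% ± 4.39 with YAP and 87.7% ± 3.96 with TAZ. TUBA1B averaged 72.4% ± 2.48 with YAP and 74.7% ± 3.56 with TAZ. EEF1A1 averaged 66.7% ± 7.16 with YAP and 60.3% ± 2.69 with TAZ. B2M averaged 39.7% ± 8.25 with YAP and 33.8% ± 6.56 with TAZ. Over the 6 windows the mean was 64.9% ± 3.39 with YAP and 66.4% ± 2.51 with TAZ, a difference of -1.53 points that is smaller than either SD.

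The share of a window under peaks of all 4 lists follows in part from how much each list covers, and no level without agreement was computed for it. In TUBA1B, 67.1% of the window was under peaks of all 4 lists and 18.8% under none, leaving 14.0% on which they differed. In ACTB and PPIA, 70.6% and 72.4% of the window was under peaks of all 4. The lists differed most at GAPDH, on 47.8% of the window, and at B2M, on 33.1%. Part of the overlap may also be built in, since the peaks of all 4 lists are named after the same input.

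Some limits of the lists touch these genes in particular. RefSeq names 87 pseudogenes after PPIA, 65 after GAPDH, 50 after EEF1A1 and 14 after ACTB, and none after B2M or TUBA1B in this way. How reads that match both a gene and its copies were handled is not given in the sources used here, and its part in the peaks over exons was not tested.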

How the data were processed

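YAP and TAZ chromatin immunoprecipitation sequencing was analysed from the deposited peak lists of 4 libraries. The submitters' processing notes list MACS2, Bowtie2, cutadapt and SAMtools and the build hg19; versions, settings and thresholds are not given in the sources used here. Broad peaks were called per library. The peaks themselves are named after 1 common input, but each list is named after an input of its own replicate number, so which input was used is unsettled. The deposited fold is the authors' ratio of ChIP to input signal. The deposited −log10 p and −log10 q are the peak caller's and served to rank and filter peaks within a list. The deposited score repeats the −log10 q and was not used. The lowest deposited −log10 q, which corresponds to the largest q-value kept, lay between 1.00 and 1.02 in the lists.

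Covered bases and overlaps of at least 1 bp were computed with Python 3.11.15 and numpy 2.4.6, and the code was tested on simulated peaks. The background was every 1 kb bin and 50 kb window of chromosomes 1 to 22 and X up to the last peak. The spans of the 6 genes were given in whole kilobases, all 6 genes are named, and the peaks named are those over the start kilobase, over the rest of the span and with the highest −log10 q of the window, plus wide and flanking peaks picked after their values were seen. Per gene, YAP was compared with TAZ by an exact two-sided permutation test with Benjamini-Hochberg adjustment. The genes and lists were chosen with earlier results of these data known. Alternatives were stricter peak thresholds, shortened lists, other flanks and start windows, each library left out, and the replicate number as a block. Other housekeeping genes were not analysed here.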

Additional observations from a re-analysis of the deposited data

How the results depend on the processing

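The number of the 6 starts with a peak in all 4 lists was 3, and it was 3 with any single library left out. It was 1 with a q-value of at most 0.01, 0 with a fold of at least 4 and 0 with lists shortened to the shortest, 2 when 500 bp of the start kilobase had to be covered and 4 with a 2 kb start window. The median covered share of the windows was 67.03% to 69.3% with a library left out, 2.47% with a fold of at least 4 and 27.2% without flanks. The YAP minus TAZ difference of the mean share, -1.53 points, was 0.358 with a q-value of at most 0.01, 5.11 with a fold of at least 4, -9.81 without flanks, and -3.92 to 0.863 with a library left out (0.863 without YAP replicate 2 and 0.247 without TAZ replicate 2). For single genes it changed sign in 6 of the 52 repeats that could change it, without the block and without the 2 repeats in which no peak was left (ACTB and EEF1A1 with a fold of at least 4). With a fold of at least 4 it became 0.802 for GAPDH, -0.311 for B2M and 17.5 for TUBA1B; with 10 kb flanks it was 0.0920 for TUBA1B, without flanks -1.46 for B2M, and without TAZ replicate 2 it was 0.198 for TUBA1B. With a library left out it ranged from -8.79 to -2.58 for ACTB, -30.3 to -3.96 for GAPDH, 1.39 to 11.5 for EEF1A1, 2.36 to 4.95 for PPIA, 0.0333 to 11.7 for B2M and -4.84 to 0.198 for TUBA1B. The cause of these shifts was not tested. The share of 1 kb bins with a peak in all lists was 15.9% outside stretches of 50 kb without peaks and 16.8% on the chromosomes of the genes. The labels do not say what a replicate number shares. With the replicate number as a block the differences kept their values, such as -17.1 for GAPDH, and the smallest exact sign-flip p was 0.5, the lowest that 2 pairs allow.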
